A study of Homo sapiens with 14 samples.

Results

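The regions described here are 220 long peaks of ubiquitylated histone H2A (uH2A), seen with a rabbit antibody in control DU145 cells, on which no peak of a second uH2A antibody, raised in mouse, was called. They were chosen by measured values: peaks of the rabbit control list of at least 1000 bp that overlapped no mouse control peak were taken first. Because only 77 peaks met that length, under the 200 required, the minimum of 750 bp provided for that case was used. The regions are therefore not domains of 1 kb in general, and 143 of them were between 750 and 975 bp long. They made up 220 of the 27077 rabbit control peaks (0.812%) and 215.6 of the 6099.68 kb those peaks covered (3.53%). Of all 543 rabbit control peaks of at least 750 bp, they were 40.5%, and the other 323 lay on a mouse peak.

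DU145 is an established human prostate cancer cell line. Sequencing of immunoprecipitated chromatin (ChIP-seq) was done with 7 antibodies in control cells, which carry a scramble construct, and in cells with a stable knockdown of EED, all of whose titles name the same construct (sh3); both lines were kept under puromycin. Each of the 14 libraries is the only one of its antibody and cell line, so no difference given here has a replicate check, no p-value was computed, and an effect of EED cannot be told apart from an effect of that construct or of those cells. The targets were the Polycomb proteins EED, BMI1, RING1A and RING1B and the histone marks H3K27me3 and uH2A, for which a rabbit antibody from Cell Signaling and a mouse antibody from Millipore were used.

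EED belongs to the core of PRC2, the Polycomb complex that methylates histone H3 at lysine 27 (H3K27me3), a mark that EED also binds. RING1A and RING1B are the ubiquitin ligases of Polycomb repressive complex PRC1, which attach ubiquitin to histone H2A, and BMI1 is a partner subunit of these ligases in part of the PRC1 complexes. H3K27me3 and uH2A are both known from silenced genes, and in many cell types they share target regions.

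A region overlapped a list when it had at least 1 bp in common with a peak of it. Intervals in parentheses are at the 95% level, exact Clopper-Pearson for a share and Newcombe for a difference, and they cover counting error only and take peaks as independent. The depth of the libraries is unknown, as the sources used here give no read totals, and the lists hold between 1372 and 56011 peaks. The libraries form 2 sets that differ in culture description and in chromosome naming, with EED and both uH2A antibodies in the first and RING1A, RING1B, BMI1 and H3K27me3 in the second. EED itself, the target of the knockdown, had 13082 peaks in the control and 1372 in the knockdown list. An overlap within the first set and the lower overlap with the second can therefore not be told apart from an effect of the library set. Regions are given by their hg19 position alone, since no sequence or gene annotation of that build was used here.

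The 220 regions had a median length of 875 bp, from 750 to 2425 bp, with the middle 50% between 800 and 1100 bp. Their median peak height, the signal that the authors' peak caller gave a peak, was 89.1, from 25.1 to 257. Shorter rabbit control peaks without a mouse peak, 19205 in all, had a median length of 175 bp and a median height of 35.2. The 323 long peaks on a mouse peak had medians of 925 bp and 95.2, with maxima of 5750 bp and 2208, so the medians were near those of the regions while the longest and tallest peaks lay on mouse peaks. Of the 220 regions, 212 (96.4%) were among the tallest 25% of the rabbit control list, as were 97.5% of the long peaks on a mouse peak and 19.5% of the shorter peaks. Around the length minimum, the 35 mouse-free peaks of 725 bp just outside it had a median height of 78.1, and the 33 of 750 bp just inside it one of 89.0. All peaks of both lengths still had a rabbit peak in knockdown cells, and 65.7% and 57.6% of them, respectively, lay on a control EED peak.

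The regions were at their longest on chrX:152654976-152657400 (2425 bp, height 54.0), chr22:50458651-50460800 (2150 bp, 99.0) and chr19:35788101-35789950 (1850 bp, 108). They were tallest on chr4:3469776-3471025 (height 257), chr19:3244151-3245450 (239), chr5:1458651-1459975 (215), chr2:1600801-1601950 (205) and chr10:7670476-7671600 (190). The longest region was thus among the lower ones in height, and the tallest were 1125 to 1325 bp long.

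In knockdown cells 216 of the 220 regions still overlapped a rabbit uH2A peak (98.2%, 95.4 to 99.5), against 28.8% of all rabbit control peaks. Of the shorter mouse-free peaks 25.04% were kept, 73.1 percentage points fewer (70.3 to 74.4). Of the long peaks on a mouse peak 95.7% were kept, a difference of 2.52 points whose interval (-0.746 to 5.54) includes 0. That interval excluded 0 under 4 alternatives: the difference was 15.5 points (9.29 to 21.3) where at least 50% of a peak had to be covered, 7.22 (2.47 to 11.7) at the central 200 bp, 6.18 (0.941 to 11.1) with the taller 50% of the knockdown list, and 4.88 (0.361 to 9.70) without the outer 3 Mb of chromosomes. High retention was thus shared by both kinds of long peak. It was shared by tall peaks of lesser length as well. For this the regions were split into 4 classes of 55 by height. The ranges given are those of the regions, and the lowest and highest classes had no outer limit for comparison peaks. Heights ran from 19.0 to 297 in the shorter peaks and up to 2208 in the long peaks on a mouse peak. Shorter peaks in the second class (64.1 to 89.0) were kept at 93.8%, those in the third at 99.1% and those in the fourth (111.8 to 256.6) at 100%. All regions of these 3 classes were kept. In the lowest class (25.1 to 63.3) 92.7% of the regions and 20.6% of the shorter peaks were kept, where median heights were 53.0 and 35.0, so height was not equal within that class. By length, the share kept among mouse-free peaks was 13.7% at 75 to 225 bp, 52.6% at 250 to 475 bp and 90.2% at 500 to 725 bp, and 97.2% of the 143 regions of 750 to 975 bp.

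**Figure D1:**
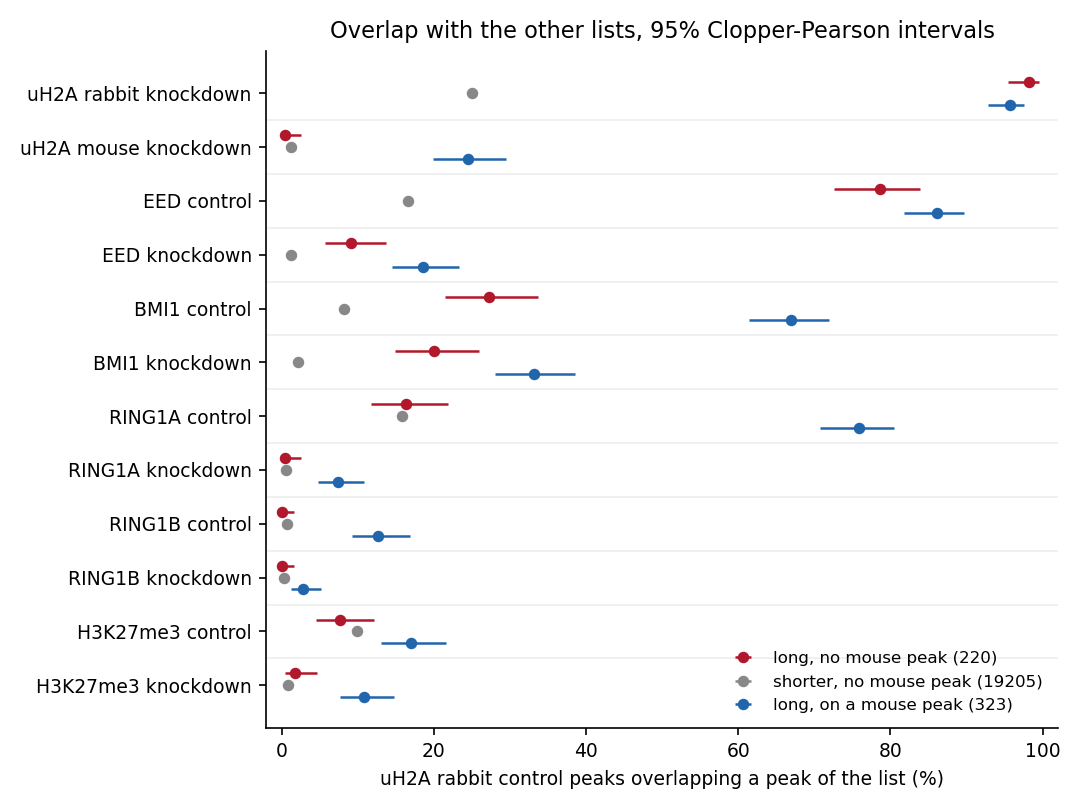
Share of uH2A rabbit control peaks (x axis, %) that overlap a peak of each other list (y axis), for the 220 long peaks without a mouse peak (red), 19205 shorter peaks without a mouse peak (grey) and 323 long peaks on a mouse peak (blue), with 95% Clopper-Pearson intervals. The red points lie near the blue ones for uH2A rabbit in knockdown cells and for control EED, and near the grey ones for RING1A, RING1B and H3K27me3.

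Most of the length of the regions remained under a peak. Knockdown rabbit peaks covered 178.6 of the 215.6 kb (82.8%), against 26.8% of the length of the shorter mouse-free peaks and 73.0% of that of the long peaks on a mouse peak. The median kept region was covered over 89.3% of its length, with the middle 50% between 77.0% and 96.7%. In 105 regions (47.7%) at least 90% was covered, 28 (12.7%) were covered wholly, and 19 (8.64%) were covered by less than 50%, the 4 lost regions included. Knockdown coverage was 89.5% at the centre of the regions and fell toward their edges. At 350 bp to either side, where the control peak covers every region by the length minimum, it was 72.7% and 73.2%. At 500 bp, outside most regions, control and knockdown coverage were 38.2% and 36.4% on one side and 34.5% and 35.0% on the other.

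The knockdown peaks on the regions were often single and long. In knockdown cells 159 regions held 1 rabbit peak, 44 held 2 and 13 held 3, and the 285 peaks summed to 194.5 kb. The longest knockdown peak on a kept region had a median of 775 bp (100 to 2550), and it was shorter than the control peak in 166 regions, longer in 40 and equal in 10. In 116 regions (52.7%) that peak also reached 750 bp. Knockdown heights on the kept regions had a median of 69.1 (22.0 to 218) where the median of the knockdown list was 35.3. These heights were not normalised between libraries, and the control median of the same regions was 89.4. Of the 216 kept regions, 175 carried a peak among the tallest 25% of the knockdown list.

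Long rabbit peaks were also about as many in both cell lines. The control list had 543 peaks of at least 750 bp and the knockdown list 493, with 215 and 207 of at least 1000 bp. The lists as a whole went from 27077 to 11327 peaks, of which 2.01% and 4.35% reached 750 bp. In the other lists of the same library set such peaks were far fewer in knockdown cells, but so were all peaks. Of 33879 mouse uH2A peaks in control cells 173 (0.511%) reached 750 bp, and of 7160 in knockdown cells 29 (0.405%) did. For EED they were 74 of 13082 (0.566%) and 5 of 1372 (0.364%). Seen from knockdown cells, 466 rabbit peaks of at least 750 bp lay on no mouse knockdown peak, of which 408 (87.6%) overlapped a control rabbit peak of any length and 116 one of the regions.

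**Figure D2:**
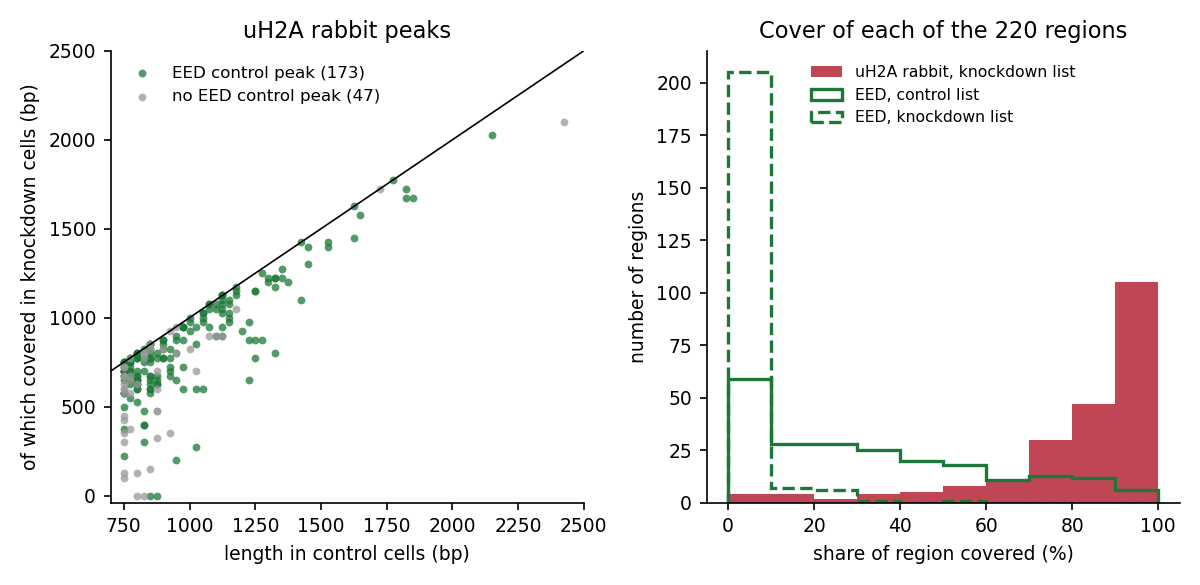
Left: base pairs of each of the 220 regions covered by uH2A rabbit peaks in knockdown cells (y axis) against its length in control cells (x axis, bp), green with and grey without a control EED peak; the line marks full cover. Right: number of regions by the share of their length covered, where knockdown uH2A rabbit peaks (filled) gather at the right end, with 105 regions at 90% or more, while knockdown EED (dashed) lies almost wholly at the left.

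The 4 lost regions were all under 900 bp and below the median height of the regions. They lay on chr1:18001776-18002650 (875 bp, height 38.1, with a control EED peak of 100 bp), chr19:513476-514325 (850 bp, 45.4, with an EED peak of 150 bp) and chr20:62809801-62810625 (825 bp, 57.2). The region on chromosome 20 had no EED peak and carried RING1A, BMI1 and H3K27me3 peaks in control cells. The remaining lost region, on chr11:1848401-1849200 (800 bp, 54.2), falls outside the naming rule and is added because it completes the count; its only other control peak was a RING1A peak of 150 bp. No other antibody had a knockdown peak on any of the 4.

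EED was the antibody most often found on the regions. In control cells 173 of 220 overlapped an EED peak (78.6%, 72.6 to 83.9), against 23.1% of all rabbit control peaks. The share was 62.0 points (56.1 to 67.0) above the 16.6% of shorter mouse-free peaks and differed from the 86.1% of long peaks on a mouse peak by -7.43 points (-14.2 to -0.977). On the autosomes alone, without the 9 regions on chromosome X, the latter difference was -4.08 points (-10.7 to 2.15), which includes 0, as it did with the length minimum at 1000 bp (-6.04, -15.1 to 0.920) and among the 31 longest regions (-4.70, -19.0 to 4.17). Under the other alternatives the interval of that difference excluded 0. The difference was -15.1 points (-23.3 to -6.82) at the central 200 bp. Where at least 50% of a peak had to be covered it was -17.3 (-25.0 to -9.11). It was -10.3 (-18.0 to -2.53) with the taller 50% of the EED list and -10.1 (-19.3 to -1.19) without the outer 3 Mb. The EED share rose with length among mouse-free peaks, from 11.4% at 75 to 225 bp and 57.7% at 500 to 725 bp to 72.7% at 750 to 975 bp and 93.5% of the 31 longest regions. A longer peak has more room for an overlap, and with only the central 200 bp of each peak tested the share was 54.5% for the regions and 16.4% for the shorter peaks, a difference of 38.1 points (31.5 to 44.6). Within the upper 3 height classes that central difference was no longer apart from 0, at 1.36 points (-11.9 to 14.5), -5.20 (-19.6 to 7.94) and 3.37 (-10.8 to 15.3), and in the lowest class it was 11.5 (1.86 to 24.4). Where shorter peaks were as tall, a higher EED share at the centre of long regions was thus not shown. Over the whole peak, EED was found on 49.1%, 81.8%, 87.3% and 96.4% of the regions in the 4 height classes, from lowest to highest, and on 13.96%, 52.5%, 72.1% and 77.0% of the shorter peaks.

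**Figure D3:**
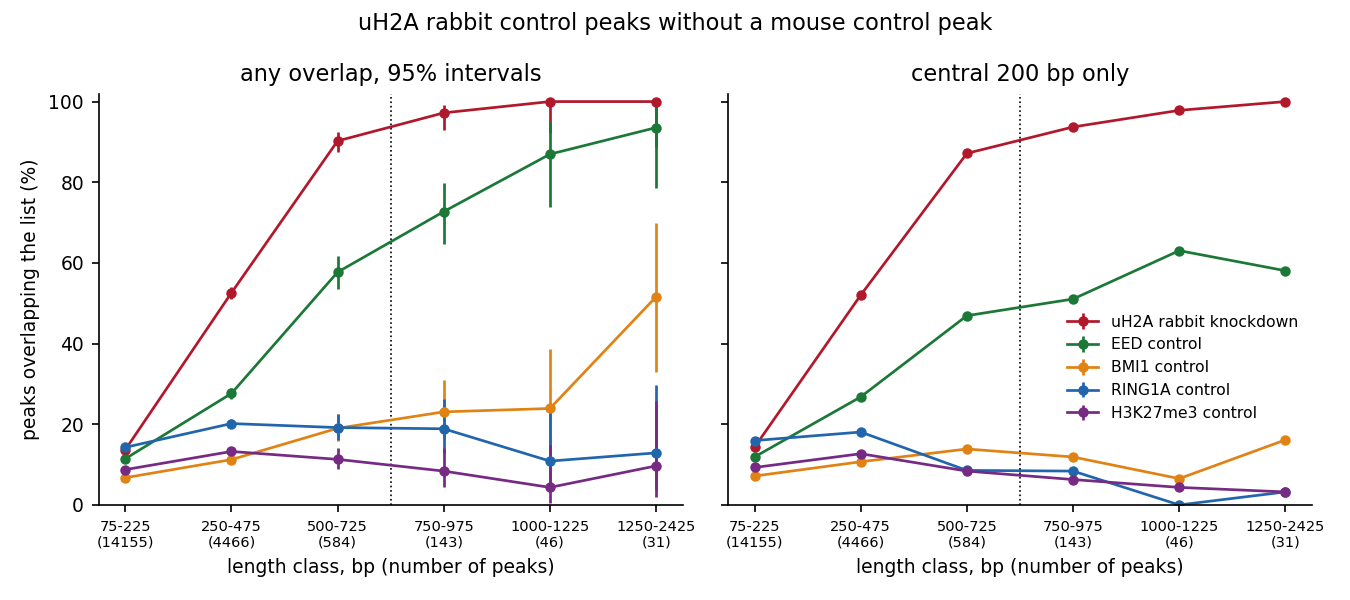
Share of mouse-free uH2A rabbit control peaks (y axis, %) that overlap each list, by length class (x axis, bp, with the number of peaks), for any overlap (left, with 95% intervals) and for the central 200 bp only (right). Right of the dotted line are the regions described here: uH2A rabbit in knockdown cells and control EED rise with length in the left panel, and RING1A and H3K27me3 do not.

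EED peaks were mostly short beside the uH2A regions they lay on. The 267 control EED peaks on the regions had a median length of 200 bp, where the median of the EED list was 125 bp, and 47.2% of them were among the tallest 25% of that list. A single EED peak lay on 101 regions and at least 2 on 72, with at most 5. Together they covered 72.975 kb, 33.8% of the length of the regions. Control EED peaks covered 46.9% of the length of the long peaks on a mouse peak and 12.2% of that of the shorter mouse-free peaks. Coverage by EED was 40.5% at the centre of the regions and 8.64% and 9.55% at 500 bp to either side. The longest EED stretch among the 5 tallest regions was on chr4:3469776-3471025, where a single EED peak covered 975 bp.

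In knockdown cells EED was left on 20 regions (9.09%, 5.64 to 13.7), against 2.69% of all rabbit control peaks, 1.25% of the shorter and 18.6% of the long peaks on a mouse peak. Over the 4 height classes it was on 1.82%, 1.82%, 9.09% and 23.6% of the regions. On the shorter peaks of these classes it was 0.985%, 4.38%, 8.84% and 7.41%. The interval of that difference excluded 0 only in the highest class (16.2 points, 5.35 to 29.4). All 20 regions with knockdown EED had an EED peak in control cells, so 11.6% (7.21 to 17.3) of the 173 EED regions retained EED. Counted by EED peak, 16 of the 267 on the regions were kept (5.99%, 3.46 to 9.55), and 5.79% of the 13082 control EED peaks anywhere were. The share of the whole EED list lay inside the interval of the regions. Of the EED peaks on long peaks with a mouse peak 14.7% (11.5 to 18.4) were kept, a share above that interval. Counted by long peak, 21.2% (16.6 to 26.5) of those with a mouse peak and EED in control cells retained EED. Knockdown EED peaks covered 3.475 kb, 1.61% of the length of the regions.

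The uH2A rabbit signal remained where EED peaks were gone. Of the 153 regions that lost EED, 151 (98.7%) kept a rabbit peak, and 84.5% of their 154.1 kb stayed covered. The 20 regions that retained EED were all kept, with 93.2% of their length covered. Control EED heights had a median of 39.2 (26.2 to 91.7) on the regions that lost EED and 50.6 (35.2 to 79.2) on those that retained it, so the ranges overlapped. A total of 47 regions had no EED peak in control cells, and 45 of them (95.7%) were kept. Their length was covered less, at 72.0% against 85.5% in the regions with EED, and their median control height was lower, at 61.1 against 94.0. The part of height in that difference was not tested.

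**Figure D4:**
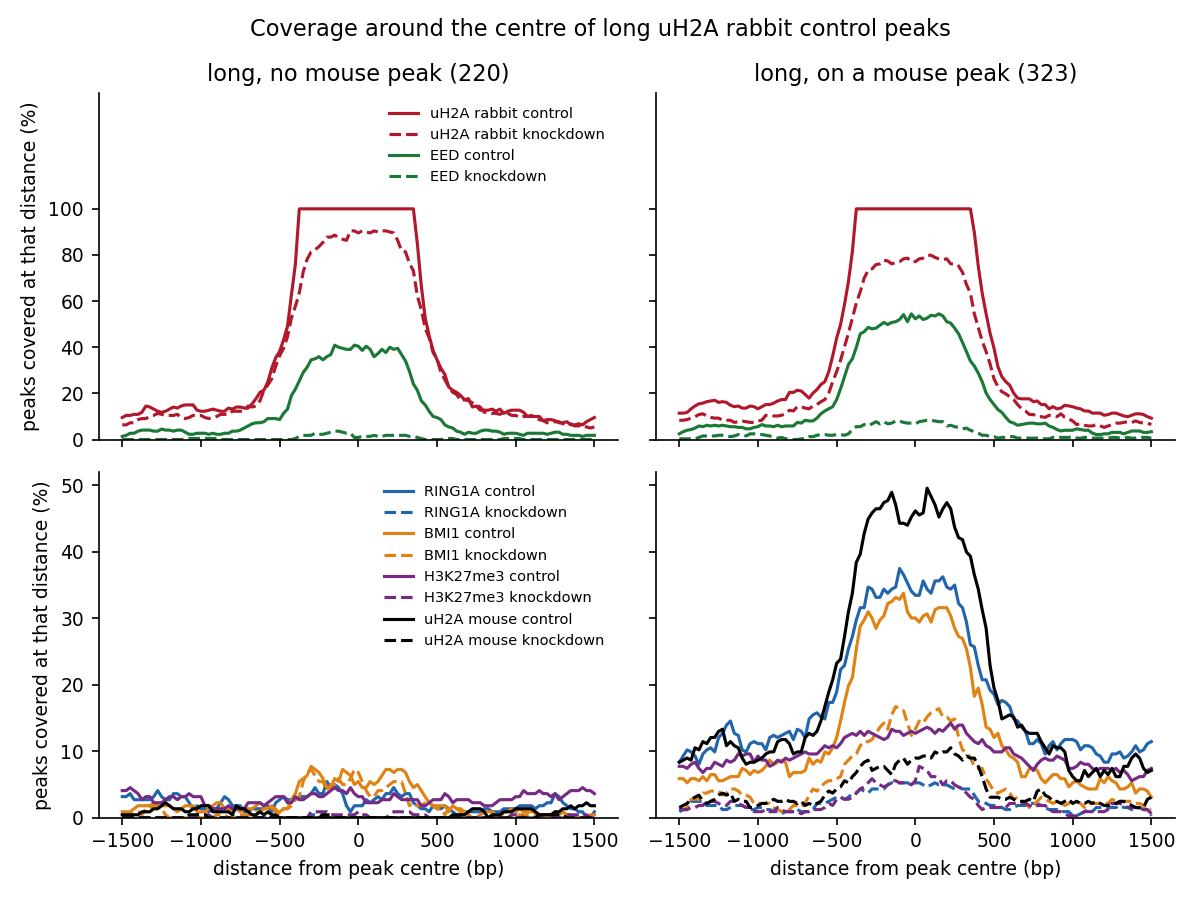
Share of peaks covered (y axis, %) at each distance from the peak centre (x axis, bp) for the 220 regions (left) and the 323 long peaks on a mouse peak (right), with uH2A rabbit and EED above and RING1A, BMI1, H3K27me3 and uH2A mouse below, solid in control and dashed in knockdown cells. At the centre of the regions knockdown uH2A rabbit coverage is 89.5% and control EED coverage 40.5%, and no antibody in the lower left panel reaches 10%; mouse control coverage within the regions is 0 by the choice of the regions.

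Single regions show the same values. At the tallest, on chromosome 4, the control rabbit peak of height 257 was followed in knockdown cells by a peak of 1175 bp and height 174, the EED peak of 975 bp (height 54.3) by an EED peak of 150 bp (31.0), and 3 control BMI1 peaks by 1. On chr19:3244151-3245450 the rabbit peak was 1300 bp in control and 1225 bp in knockdown cells (heights 239 and 218), with 2 EED peaks in control cells and 1 of 75 bp in knockdown cells, and a control H3K27me3 peak of 175 bp. A BMI1 peak of 100 bp was listed there in knockdown cells only. On chr10:7670476-7671600 a knockdown rabbit peak of 1275 bp (height 143) covered the region wholly, with 2 control EED peaks, a knockdown EED peak of 250 bp, and 2 BMI1 peaks in each cell line. On chr2:1600801-1601950 the knockdown rabbit peak was 1100 bp long, and the control EED peak of 550 bp had no successor. H3K27me3 was listed there in both cell lines, with peaks of 100 bp in control and 150 bp in knockdown cells. On chr5:1458651-1459975 rabbit peaks covered 88.7% in knockdown cells, and EED was left with a peak of 325 bp. BMI1 had 2 peaks in control cells and a peak of 1025 bp in knockdown cells. H3K27me3 was listed there in knockdown cells only, with 2 peaks that covered 550 bp. These 5 regions all kept most of their uH2A rabbit cover, and 4 of the 5 retained an EED peak; in the tallest of the 4 height classes 23.6% of the regions did.

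The longest regions named here behaved alike in uH2A. Those on autosomes were also alike in EED, with peaks in control cells and none in knockdown cells. The region on chr22:50458651-50460800 was covered over 94.2% by 3 knockdown rabbit peaks and had 2 EED peaks in control and none in knockdown cells. The region on chr19:35788101-35789950 was covered over 90.5% by a single peak of 1675 bp, and its 3 control EED peaks were gone. On chr14:105327001-105328825 (1825 bp, height 139) the cover was 94.5%, with 2 control EED peaks, the longer of 700 bp, and BMI1 in both cell lines. On chr16:88312826-88314650 (1825 bp, height 80.1) it was 91.8%, with 3 control EED peaks and BMI1 in both cell lines. EED had no knockdown peak on either of the regions just named. The longest of all, on chromosome X, had no peak of any other antibody in either cell line and was covered over 86.6% by 3 rabbit knockdown peaks, the longest of 1975 bp.

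PRC1 proteins were less frequent on the regions than on long peaks with a mouse peak. RING1A was present on 36 in control cells (16.4%, 11.7 to 21.9), against 28.9% of all rabbit control peaks. The difference to the 75.9% of long peaks on a mouse peak was -59.5 points (-65.6 to -52.1). It differed from the 15.8% of shorter mouse-free peaks by 0.571 points, with an interval (-3.76 to 6.05) that includes 0. The gap to the long peaks on a mouse peak was present in each of the 4 height classes. There RING1A lay on 16.4%, 18.2%, 14.5% and 16.4% of the regions and on 76.7%, 79.8%, 69.8% and 75.9% of the long peaks on a mouse peak. At the central 200 bp RING1A was on 5.91% of the regions and 49.8% of the long peaks on a mouse peak, and on 16.2% of the shorter peaks, a difference of -10.3 points (-12.8 to -6.35) between regions and shorter peaks. RING1A peaks covered 6.35 kb, 2.95% of the length of the regions, and the median distance from a region to the nearest RING1A peak was 5.35 kb. In knockdown cells RING1A was left on 1 region (0.455%), against 1.45% of all rabbit control peaks, and that region had none in control cells. None of the 44 control RING1A peaks on the regions was kept (0%, with a Clopper-Pearson upper limit of 8.04%), where 4.07% of RING1A peaks anywhere were.

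RING1B, the other PRC1 ligase, was called on 0 of the 220 regions in control cells, a count that allows a share of up to 1.36% by the limit of 3 counts, or 1.66% by Clopper-Pearson, against 2.10% of all rabbit control peaks. It lay on 12.7% of the long peaks on a mouse peak, a difference of -12.7 points (-16.8 to -9.06), and on 0.745% of the shorter mouse-free peaks. In knockdown cells RING1B was again on 0 regions, against 0.395% of all rabbit control peaks. The nearest control RING1B peak was a median of 880 kb away.

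BMI1 lay on 60 regions in control cells (27.3%, 21.5 to 33.7), against 15.8% of all rabbit control peaks. That was 19.1 points (13.6 to 25.4) above the shorter mouse-free peaks (8.16%), and the difference to the long peaks on a mouse peak (66.9%) was -39.6 points (-46.9 to -31.4). With the central 200 bp only, the regions (11.4%) and the shorter peaks (8.19%) differed by 3.17 points, with an interval (-0.396 to 8.06) that includes 0. BMI1 was more frequent on taller regions, with 12.7%, 27.3%, 25.5% and 43.6% over the 4 height classes, and on longer ones, with 51.6% of the 31 longest. Its 76 control peaks on the regions were short, with a median of 125 bp, and covered 5.73% of the length.

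Regions with BMI1 retained it more often than regions with EED, RING1A or H3K27me3 retained those. In knockdown cells it was on 44 regions (20.0%, 14.9 to 25.9), against 4.27% of all rabbit control peaks and 2.18% of the shorter mouse-free peaks. Of the 60 regions with BMI1 in control cells 30 (50%, 36.8 to 63.2) also had it in knockdown cells, and 14 had it in knockdown cells only. By peak, 27 of 76 (35.5%, 24.9 to 47.3) were kept, above the 21.1% of BMI1 peaks anywhere and close to the 34.9% of those on long peaks with a mouse peak. The knockdown share over the height classes was 1.82%, 14.5%, 18.2% and 45.5%, so that in the tallest class the shares of both cell lines were close. On the shorter peaks of these classes it was 1.58%, 8.75%, 16.7% and 22.2%. The interval of the difference to them excluded 0 only in the tallest class (23.2 points, 8.60 to 37.7).

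H3K27me3, the mark of PRC2, was on 17 regions in control cells (7.73%, 4.57 to 12.1), against 10.1% of all rabbit control peaks. The difference to the 9.87% of shorter mouse-free peaks was -2.15 points (-5.02 to 2.17), or -4.59 (-6.94 to -0.736) at the central 200 bp and -6.25 (-7.61 to -3.29) where at least 50% of a peak had to be covered, both of which exclude 0. That to the 17.0% of long peaks on a mouse peak was -9.30 points (-14.6 to -3.63). H3K27me3 peaks covered 2.96% of the length of the regions. Of the 173 regions with EED, 11 also carried an H3K27me3 peak and 162 did not. In knockdown cells 4 regions had a peak (1.82%), against 1.55% of all rabbit control peaks, and 1 of the 4 had one in control cells too. None of the 23 control H3K27me3 peaks on the regions was kept, with a Clopper-Pearson upper limit of 14.8%, which includes the 3.81% of H3K27me3 peaks kept anywhere. Of those on long peaks with a mouse peak 23.6% (14.4 to 35.1) were kept, a share above that limit with an interval that reaches just below it.

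The longest region on H3K27me3 lay on chr2:242806576-242808300 (1725 bp, height 81.9). Its only partner peak was an H3K27me3 peak of 100 bp, and a rabbit peak of 1850 bp covered it wholly in knockdown cells. On chr8:143640426-143642050 (1625 bp, height 93.1), 3 H3K27me3 peaks covered 1325 bp in control cells, together with EED, RING1A and BMI1. None of these antibodies had a knockdown peak there, while rabbit uH2A still covered 89.2%.

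The mouse uH2A antibody had a knockdown peak on 1 region (0.455%), against 5.43% of all rabbit control peaks and 24.5% of the long peaks on a mouse peak. Since the regions were chosen to have no mouse peak in control cells, this low share is a description of the same antibody in the second cell line. The region was on chr5:1246901-1247750 (850 bp, height 85.3), with a mouse peak of 75 bp in knockdown cells. In control cells it lay wholly within an H3K27me3 peak of 4600 bp and carried EED and RING1A peaks, and its rabbit cover in knockdown cells was 70.6%. The nearest mouse control peak to a region was a median of 10237.5 bp away, against 5825 bp for the shorter mouse-free peaks. It lay within 1 kb in 25 regions (11.4%) and in 21.9% of the shorter peaks. Beyond 100 kb it lay in 35 of the 220 regions and in 2045 of the 19205 shorter peaks. All 9 regions on chromosome X were among those 35, and that chromosome held only 16 mouse control peaks.

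Combinations of the control antibodies were few. EED alone was on 105 regions (47.7%), EED with BMI1 on 37 (16.8%), and no other antibody on 31 (14.1%). On the autosomes, no other antibody was on 22 of 211 regions, against 13682 of 26952 rabbit control peaks. Of the comparison sets there, it was so for 11824 of 19094 shorter mouse-free peaks and 7 of 323 long peaks on a mouse peak. Shares of the other combinations in those sets are not given here. EED with RING1A and BMI1 followed with 12, EED with RING1A with 8 and RING1A alone with 5. By number, 115 regions had a single other antibody, 53 had 2, 19 had 3 and 2 had 4. The rabbit peak was kept in 103 of 105 regions with EED alone, 37 of 37 with EED and BMI1, 31 of 31 with none and 4 of 5 with RING1A alone. The single region with RING1A, BMI1 and H3K27me3 lost it, and no region was lost in the other combinations. With RING1A 34 of 36 regions were kept and without it 182 of 184, with BMI1 59 of 60 and without it 157 of 160, and with H3K27me3 16 of 17 and without it 200 of 203.

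**Figure D5:**
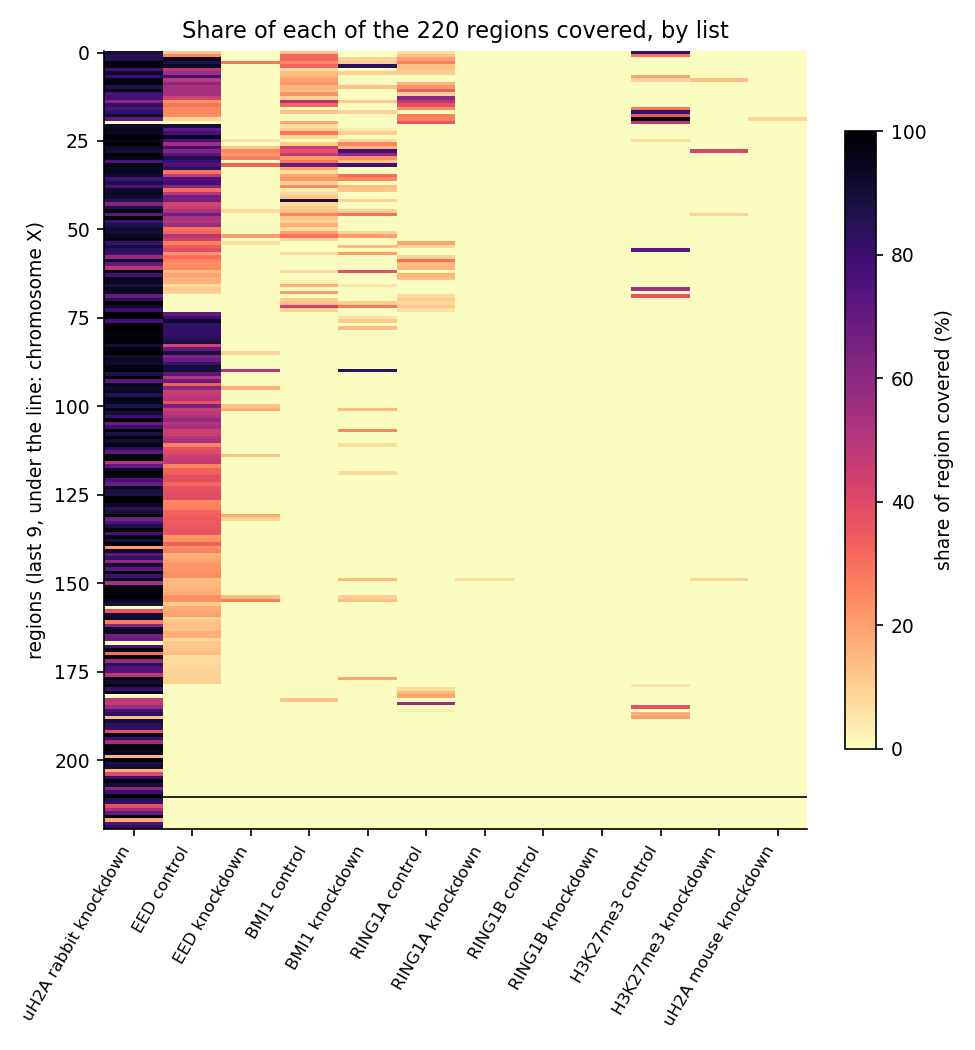
Each row is one of the 220 regions and each column a list; colour gives the share of the region's length covered by peaks of that list (%). Rows are ordered by the number of other control antibodies and then by EED cover, with the 9 regions on chromosome X under the line. Knockdown uH2A rabbit cover is high in most rows, with and without other antibodies. It is lower in the regions without control EED (72.0% of their length) than in those with it (85.5%).

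The regions with the most antibodies were on chr8:143640426-143642050 and on chr1:801776-802575 (800 bp, height 103), each with EED, RING1A, BMI1 and H3K27me3 in control cells. Neither had a knockdown peak of any of these, and rabbit uH2A covered 89.2% and 84.4%. Those with EED, RING1A and BMI1 were led by chr4:1653626-1655050 (1425 bp), chr7:157851451-157852775 (1325 bp) and chr21:46321601-46322850 (height 136), with rabbit cover of 77.2%, 60.4% and 92.0% in knockdown cells. The region on chromosome 21 and the one on chromosome 7 still had a BMI1 peak. Among the regions on no other antibody, the longest autosomal one was on chr6:151097576-151098750 (1175 bp, height 63.2), with a single knockdown rabbit peak of 1075 bp and a cover of 89.4%.

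Chromosome X held 9 regions among only 109 rabbit control peaks, or 82.6 regions per 1000 rabbit peaks against 8.12 over the whole list. Of these 9 regions, 7 lay in a single stretch of 18125 bp, described below. The rate and the other values of the 9 therefore rest largely on a single place and not on the chromosome as a whole. None of the 9 had a control peak of EED, RING1A, BMI1 or H3K27me3, and all 9 were kept. Of all 109 rabbit control peaks on X, 98 likewise lay on none of the other antibodies, and 43.1% were kept. Heights of the 9 ran from 25.1 to 54.0 with a median of 45.0, against a median of 25 for all rabbit peaks on X and 90.1 for the regions on the autosomes. EED and mouse uH2A peaks were rare on the whole chromosome, where 9 of 13082 control EED peaks and 16 of 33879 mouse control peaks lay. On the autosomes 173 of 211 regions (82.0%) had EED. That X and Y are the numbers after the autosomes in these lists is an assumption.

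The stretch with the most regions was on chrX:30806651-30824775, where 7 regions summed to 6200 bp within 18125 bp. All 7 were kept, with 63.7% of their length covered, and no other antibody had a peak on any of them in either cell line. Its longest region, at 30823676 to 30824775 (1100 bp, height 50.2), was covered over 81.8%. The next stretch, on chr8:143494801-143702800, held 6 regions, all kept, with 88.6% covered and EED on 4. On chromosome 16, stretches of 3 regions each lay at 88310226 to 88370375 (93.1% covered), 89142001 to 89257775 (73.6%) and 86894726 to 87032925 (99.1%). The last of these had EED on all 3 in control cells and on 2 in knockdown cells. It tied in summed length with a stretch on chr20:60495276-60546675, with 3 regions, all on EED, and 89.9% covered. With regions linked at gaps of up to 100 kb, 155 stood alone and 65 (29.5%) lay in 26 stretches of 2 or more. The same count is not given here for the comparison sets. Another rabbit control peak of any length lay within 1 kb of 44.1% of the regions. It did so for 27.5% of the shorter mouse-free peaks and 52.6% of the long peaks on a mouse peak.

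Long peaks gathered toward chromosome ends. Within the outer 3 Mb of a chromosome, taken from the largest position in any list, lay 97 regions (44.1%, 37.4 to 50.9), against 23.6% of the shorter mouse-free peaks and 51.1% of the long peaks on a mouse peak. Chromosome 13 had 6 regions, all in the outer 3 Mb, and chromosome 20 had 12 of 14 there. The regions near ends and the others were alike in uH2A and in control EED, with 94 of 97 and 122 of 123 kept, 83.8% and 82.0% of the length covered, and EED on 80.4% and 77.2%. In knockdown cells EED was on 6.19% of the regions near ends and 11.4% of the others. RING1A lay on 24.7% of the regions near ends and 9.76% of the others, and BMI1 on 36.1% and 20.3%. Shares near ends are not given here for all rabbit control peaks or the comparison sets, and no interval is given for these gaps. Whether the gaps in RING1A and BMI1 are particular to the regions was therefore not tested. By number, chromosome 2 had the most regions (21), followed by 16 (20) and 1 (19).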

How the data were processed

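The 14 peak lists were deposited per library, and the members and lists described here were chosen with earlier results of these data known. The submitters' processing notes name Bowtie as aligner and hg19 as genome build; HPeak is the caller named by the deposited lists, and the sources used here give neither its settings nor any use of an input library. Each list gives chromosome, start, end, length, an offset, a height and a score. The height was used as the signal of a peak that the authors' caller wrote, not normalised between libraries. The score in the deposited lists was not used. Lengths are multiples of 25 bp. The 2 chromosome numbers that follow the autosomes were taken to be X and Y.

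Overlaps, covered lengths and intervals were computed in Python 3.11.15 (scipy 1.17.1, pandas 2.3.3, numpy 2.4.6) by code tested on simulated data. Comparison sets were shorter rabbit control peaks without, and equally long ones with, a mouse control peak. Alternatives changed the overlap rule, the length minimum, the chromosomes used and the peaks of the other list. Regions were named by a rule: the 5 longest, the 5 tallest, the 5 with most other control antibodies, the 3 longest lost and kept, the 3 longest on H3K27me3 and on no other antibody, those with a mouse knockdown peak, and the 5 stretches with most regions. None of the regions lay in a high-signal window (a 100-kb window, with its neighbours, where at least 2 other antibodies have a peak over 10 times their median height). Depth is unknown, and the number of peaks limits the precision.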

Additional observations from a re-analysis of the deposited data

How the results depend on the processing

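Of the alternative values computed, 252 stayed within the main interval or 1.5 times a main count, 115 moved and 3 changed sign. A length minimum of 1000 bp gave 77 regions and the higher planned minimum gave 31, with 100% kept under both, 88.4% and 89.8% of the length covered, EED on 89.6% and 93.5% and BMI1 on 35.1% and 51.6%. RING1A was on 11.7% at 1000 bp. At these minimums the EED difference to shorter peaks was 72.6 and 76.4 points, and the RING1A difference to long peaks on a mouse peak -66.6 and -66.0. At 1000 bp the kept difference to shorter peaks was 74.4 points. At the higher planned minimum the differences to long peaks on a mouse peak were -30.8 points for BMI1 and 4.41 for H3K27me3, the latter with a changed sign. When at least 50% of a peak had to be covered, 91.4% were kept, and the shares were 27.3% for EED, 0.455% for knockdown EED, 0.909% for RING1A and 1.36% for BMI1. The differences were then 16.7 points for EED to shorter peaks, -25.7 for RING1A and -19.4 for BMI1 to long peaks on a mouse peak, while those to shorter peaks changed sign for knockdown EED (-0.207) and BMI1 (-3.32). The cause was not tested. The central 200 bp gave 54.5% for EED, 5.45% for knockdown EED, 5.91% for RING1A and 11.4% for BMI1, with differences of 70.2 (kept) and 38.1 points (EED) to shorter peaks and -43.9 (RING1A) to long peaks on a mouse peak. Peaks within 1000 bp gave 30.5% for RING1A and a kept difference of 65.8 points. The taller 50% of each other list gave 93.2% kept, 65.9% EED, 4.55% knockdown EED, 10.0% RING1A and 16.8% BMI1, with differences of 78.7 (kept) and 55.7 (EED) to shorter peaks and -50.4 (RING1A) to long peaks on a mouse peak. Without the outer 3 Mb of chromosomes, added after the data were seen, RING1A was on 9.76% and BMI1 on 20.3%, the kept difference was 75.8 points and the RING1A difference -70.0. No paired analysis was possible because each group has 1 library. Counts of calls on fewer peaks are less precise, and depth per library is unknown.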
